A study of Mus musculus with 12 samples.

Results

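Aire and Fezf2 are the transcriptional regulators of self-antigen expression in medullary thymic epithelial cells (mTEC), and 7 genes that are known to control or to bind them were followed with them in sorted mouse thymic epithelium with and without MHC class II. The 9 genes were chosen by symbol: Aire and Fezf2 themselves, Sirt1, Irf8, Irf4 and Prdm1 as regulators, and Chd4, Hipk2 and Prkdc as partners. All 9 were found among the 34547 genes whose transcripts were measured, and all 9 had more than 3 counts in at least 1 library. Of the 9, 9 passed the filter on low counts in each comparison that included mTEC, and 7 passed it in cortical thymic epithelial cells (cTEC), where Irf4 and Prdm1 were too low to be tested. Between subsets of WT mice Irf4 and Prdm1 passed it only through mTEC, as did Irf4 between subsets of Aβ0/0 mice. The text below gives these as levels without a test. The plot of fitted log2 fold changes also draws them, filled or open by the edgeR test. Those points are not read as results.

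The libraries came from wild-type (WT) C57BL/6 mice and from Aβ0/0 mice, which lack the beta chain of MHC class II and therefore carry no class II molecules on their thymic epithelium. Each genotype gave 3 cTEC and 3 mTEC libraries, and each library was made from the pooled thymi of 5 to 10 untreated mice aged 4 to 6 weeks. After removal of CD45+ cells with magnetic beads, both subsets were sorted as Epcam+ and CD45-, cTEC with the further gate Ly51+ and UEA1- and mTEC with Ly51- and UEA1+, which does not separate immature from mature mTEC. WT mice were bought from a vendor and Aβ0/0 mice were given by a colleague, so the effects of colony and genotype cannot be told apart. Pools are separate samples, and the p-values measure the spread between pools.

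mTEC transcribe a large number of genes that are otherwise restricted to peripheral tissues, a process called promiscuous gene expression, and present the products to developing T-cells so that self-reactive cells are deleted or become regulatory. Aire releases stalled RNA polymerase at many of these genes and works with DNA repair and chromatin proteins, while Fezf2 is a zinc-finger factor that drives a largely separate set of self-antigens. Aire itself is switched on late in mTEC maturation, downstream of RANK and CD40, the receptors for ligands that thymocytes carry.

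The libraries held between 21710319 and 36139815 estimated counts. H2-Ab1, the gene for the chain missing in Aβ0/0 mice, had 11506 to 11966 TPM (a level scaled for transcript length and library size) in WT mTEC and 2469 to 3541 in Aβ0/0 mTEC, so the label held in direction although transcripts were still counted. In cTEC the H2-Ab1 level was 9055 to 9640 TPM in WT and 3153 to 3956 TPM in Aβ0/0. The subset labels held too: between subsets of WT mice, where edgeR called 26.8% of all genes, it called 9 of 10 cTEC markers lower and 0 higher in mTEC. Of 8 mature mTEC markers it called 6 higher and 0 lower. Only 6 of these 8 passed the filter on low counts within cTEC, so the others entered through mTEC.

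Aire was the member with the widest range. In mTEC its level was 626, 275 and 243 TPM in the 3 WT libraries and 111, 56.0 and 65.2 TPM in the 3 Aβ0/0 libraries. In cTEC it was 2.70, 7.87 and 1.97 TPM in WT and 1.15, 0.199 and 0.283 TPM in Aβ0/0. The order of the groups was thus WT mTEC, Aβ0/0 mTEC, WT cTEC and Aβ0/0 cTEC, and no library of a group overlapped with the next. WT mTEC replicate 1 stood well above the other WT mTEC libraries. On the scale of the deposited regularized log2 values (rlog), Aire lay between 7.23 and 8.54 in the WT cTEC libraries and between 4.72 and 6.20 in the Aβ0/0 cTEC libraries, and its lowest WT mTEC library was at 13.2.

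**Figure D1:**
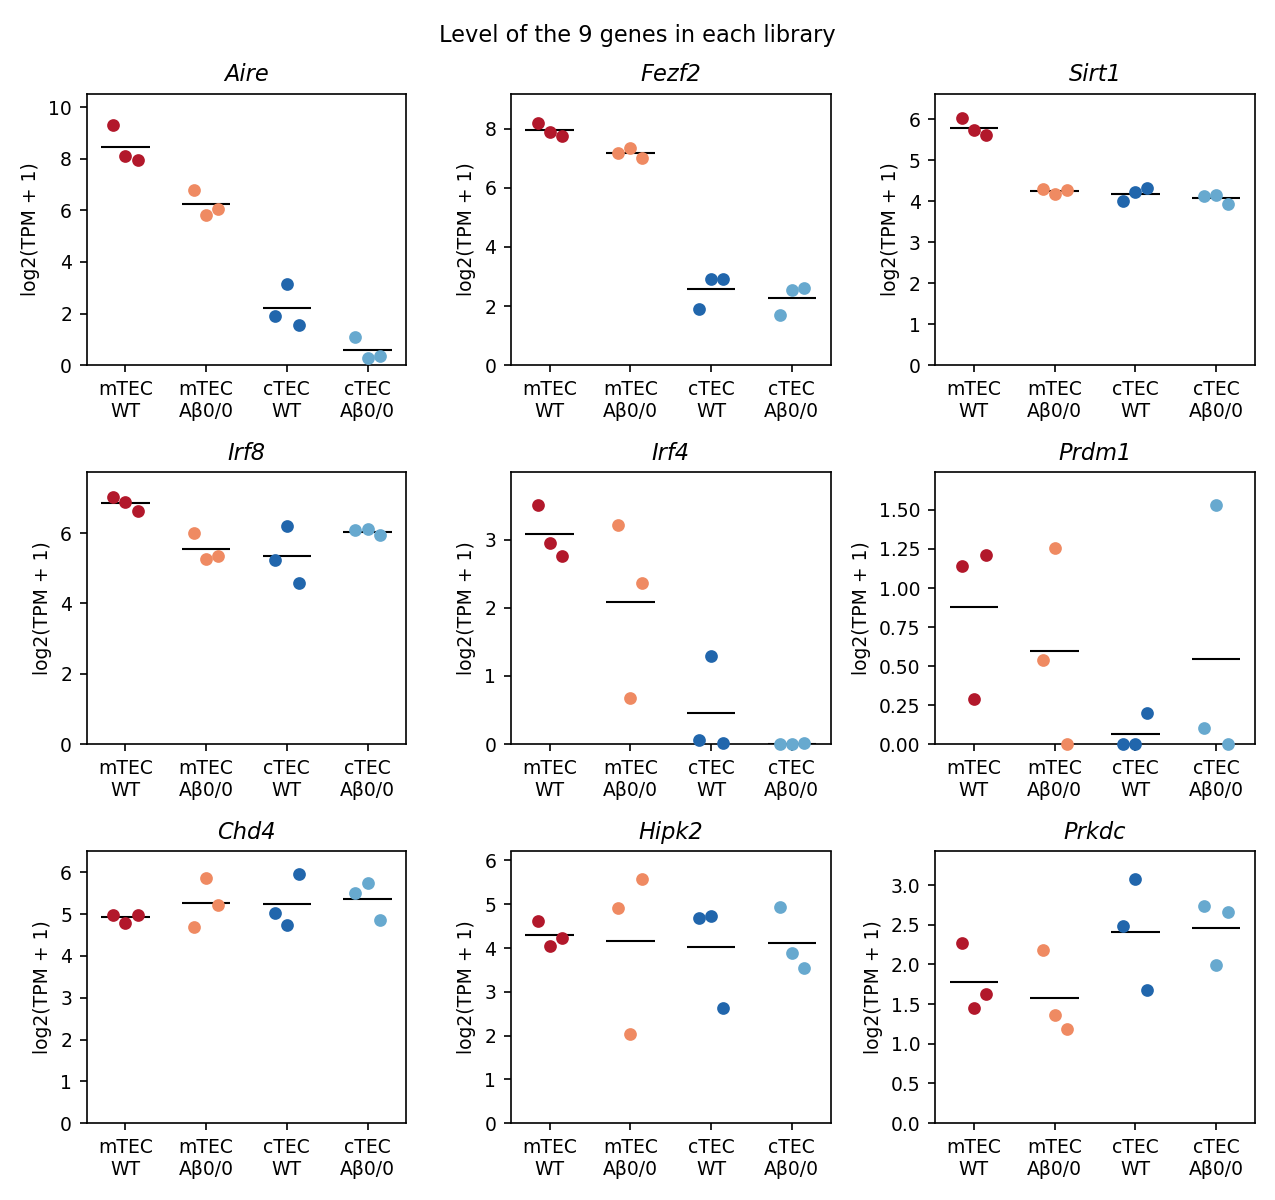
Level of the 9 genes in each library as log2(TPM + 1), 1 panel per gene, with the y axis starting at 0. Points are libraries (3 per group) and the black line is the group mean. The Aire ranges of the 4 groups are separate, whereas Sirt1 lies at 47.8 to 64.6 TPM in WT mTEC and at 14.4 to 19.1 TPM in the other 9 libraries.

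The gene for Aire (ENSMUSG00000000731) lies on the minus strand at chr10:78030022-78043610 of GRCm38, and that for Fezf2 (ENSMUSG00000021743) on the minus strand at chr14:12342094-12348189. The 250 bases before the RefSeq start of each (build GRCm38.p6, minus strand) are shown because Aire passed the genotype test in mTEC and Fezf2 did not. The window is chr10:78043611-78043860 for Aire and chr14:12345866-12346115 for Fezf2, whose RefSeq start lies 2324 bases inside the first start in GENCODE. Capitals mark matches to the searched motifs on either strand, which were the TATA box (TATAAA), the CCAAT box (CCAAT), the GC box (GGGCGG), an NF-kB motif, the T-box motif (AGGTGTNA), an Irf motif (GAAA, 2 free bases, and GAAA again) and an Ets-Irf motif (GGAA, 2 free bases, and GAAA). No searched motif overlaps another in these windows, except that neighbouring GC boxes can share bases.
Aire: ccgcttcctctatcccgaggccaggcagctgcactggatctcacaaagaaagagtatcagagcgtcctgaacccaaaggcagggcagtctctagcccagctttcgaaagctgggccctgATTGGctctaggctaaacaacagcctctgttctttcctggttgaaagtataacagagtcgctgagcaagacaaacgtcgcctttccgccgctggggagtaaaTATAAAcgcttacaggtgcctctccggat
Fezf2: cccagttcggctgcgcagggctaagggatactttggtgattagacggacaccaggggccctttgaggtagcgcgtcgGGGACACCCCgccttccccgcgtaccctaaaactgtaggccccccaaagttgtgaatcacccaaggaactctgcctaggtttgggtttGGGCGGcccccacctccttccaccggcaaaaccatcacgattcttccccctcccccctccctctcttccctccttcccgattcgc
The Aire window holds a TATAAA 29 to 24 bases before the start, a motif found in 12.4% of 32851 mouse promoters, and a CCAAT box on the other strand, found in 33.8%. The Fezf2 window holds an NF-kB match 173 to 164 bases before the start, a motif found in 7.25% of promoters, and a GGGCGG 85 to 80 bases before it, found in 32.7%. The Aire window has 11 CpG dinucleotides and the Fezf2 window 14, against a median of 6. A match describes the letters of the window and is not evidence of binding.

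Between genotypes in mTEC, 3 of the 9 genes passed the edgeR quasi-likelihood test at an adjusted p under 0.05, all of them higher in WT, namely Aire, Sirt1 and Irf8. The study that made these libraries had already reported these 3 as reduced in Aβ0/0 mTEC, so their share of the 9 is not independent of these data. Over all 18636 genes tested, 5.66% passed and 5.32% passed with a higher level in WT. An unadjusted p under 0.05 was reached by 4 members, against 15.3% of all genes. Aire was 4.49 times higher in WT by group means of CPM (counts scaled to library size), 647 ± 292 against 144 ± 35.8 (SD, n = 3), with a log2 fold change of 2.17 (SE 0.36, edgeR adjusted p = 0.0352). Without WT replicate 1 the Aire log2 fold change was 1.73 and the edgeR adjusted p 0.138. In bulk libraries, fewer Aire+ cells and less Aire RNA per cell cannot be told apart.

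The 3 calls were close to the threshold and depended on the setting. Over 14 alternatives, Aire and Irf8 passed in 5 and Sirt1 in 7. Without a filter on low counts and in the edgeR fit on all 12 libraries 1 member was called (Sirt1), and 0 were called when genes averaging under 10 counts were left out or when the replicate number was a block, while DESeq2 and limma called all 3. The block gave edgeR adjusted p of 0.102 for Aire and Sirt1 and 0.155 for Irf8, with log2 fold changes of 2.11, 1.97 and 1.25. The calls were also lost together when any WT mTEC library was left out, with edgeR adjusted p between 0.129 and 0.138, and when Aβ0/0 replicate 2 or 3 was left out, with adjusted p of 0.0524 to 0.0840, and they were kept without Aβ0/0 replicate 1 at 0.0298. The fold changes moved less than the calls: the log2 fold change stayed between 1.73 and 2.42 for Aire, 1.54 and 2.09 for Sirt1, and 1.18 and 1.36 for Irf8 over 14 alternatives each.

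Dnmt3l, a DNA methyltransferase cofactor, is encoded on the opposite strand and shares 1664 bases with the 5′ end of the Aire gene. The shared stretch holds the 53-base exon at chr10:78043217-78043269 of the transcript Aire-206, which is described below. The library kit does not mark strand. Dnmt3l had 622, 1078 and 736 estimated counts in WT mTEC and 48.5, 13.0 and 251 in Aβ0/0 mTEC, against 23511, 17414 and 14130 for Aire in WT and 4678, 3393 and 3411 in Aβ0/0. Reads from the shared stretch cannot be assigned to a strand, and their part in the counts of either gene or of Aire-206 was not tested.

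Fezf2 also had separate ranges in mTEC, with 291, 236 and 215 TPM in WT and 142, 161 and 127 TPM in Aβ0/0. The difference was smaller than that of Aire, 1.54 times by CPM means, with a log2 fold change of 0.63 (SE 0.21) that did not pass the edgeR test (adjusted p = 0.208). Of 14 alternatives, 1 passed, which was limma on log2(TPM + 1), with 0.77 and an adjusted p of 0.0363. Groups without overlap were common in this comparison, at 26.6% of all genes tested and 18% with WT above. Of the 9 members, 4 were in that state (Aire, Fezf2, Sirt1 and Irf8), each with WT above.

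The ratio of Aire to Fezf2 TPM compares the pair within each library. It was 2.15, 1.17 and 1.13 in WT mTEC and 0.777, 0.348 and 0.513 in Aβ0/0 mTEC, so that Aire exceeded Fezf2 in 3 of 3 WT libraries and in 0 of 3 Aβ0/0 libraries. The means were 1.48 ± 0.58 and 0.546 ± 0.217 (SD, n = 3), and the 2-sided exact permutation test gave p = 0.1, the smallest value that 3 against 3 allow. The ratio of Aire to Irf8 was 4.84, 2.36 and 2.50 in WT and 1.757, 1.496 and 1.657 in Aβ0/0 (exact permutation p = 0.1). The ratio of Aire to Sirt1 overlapped, with 9.70, 5.22 and 5.09 in WT and 5.88, 3.30 and 3.52 in Aβ0/0 (exact permutation p = 0.3). These are 3 ratios from the same libraries, and none could pass 0.05 with or without adjustment.

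**Figure D2:**
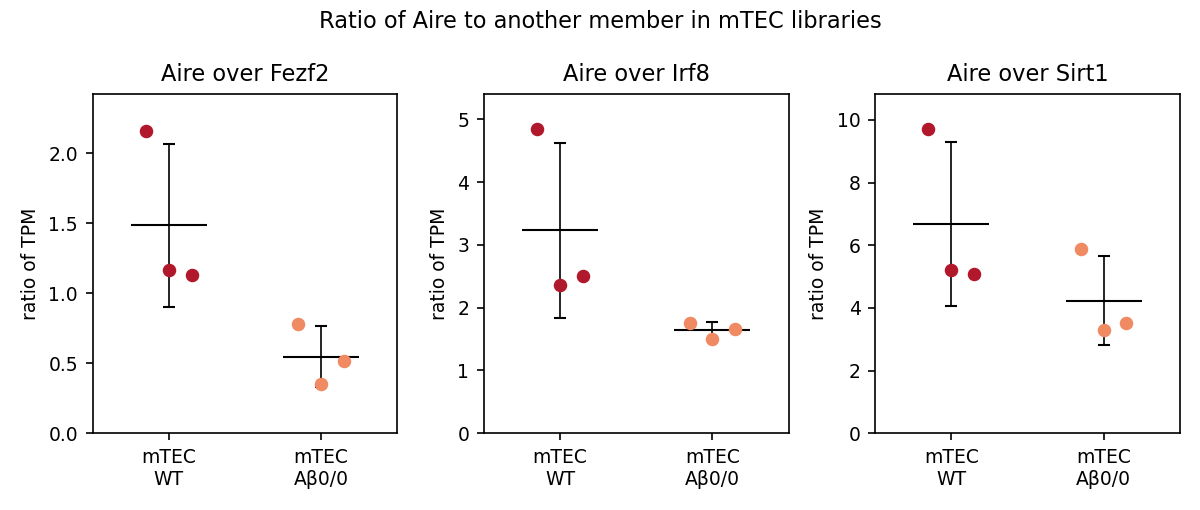
Ratio of Aire TPM to the TPM of Fezf2, Irf8 and Sirt1 in the 6 mTEC libraries. Points are libraries, and the line and bar are the mean and SD (n = 3). The Aire to Fezf2 ratio is 1.13 to 2.15 in WT and 0.348 to 0.777 in Aβ0/0, and the Aire to Sirt1 ratios of the genotypes overlap.

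Aire RNA was split over 16 annotated transcripts, 11 of them coding. The largest share of estimated counts went to Aire-206, a transcript of 2966 bases that keeps the 949-base intron between exons 10 and 11 and has an extra 53-base exon in intron 1 (chr10:78043217-78043269, GRCm38), and that is annotated as a target of nonsense-mediated decay with a coding part of only 67 amino acids. Its share was 55.8%, 53.4% and 51.8% in WT mTEC and 61.5%, 59.7% and 60.4% in Aβ0/0 mTEC. The means were 53.7 ± 2.04% and 60.6 ± 0.911% (SD, n = 3, exact permutation p = 0.1). Kallisto splits reads among transcripts by a model, and unspliced RNA that holds this intron cannot be told apart from the annotated transcript.

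The main coding transcript was Aire-204, with 1938 bases and 552 amino acids. It took 23.8%, 26.5% and 28.6% of Aire counts in WT mTEC and 18.4%, 11.1% and 21.9% in Aβ0/0 mTEC (26.3 ± 2.43% against 17.1 ± 5.50%, SD, n = 3, exact permutation p = 0.1). Aire-212 differs from it by a shorter exon 6 and encodes 548 amino acids, and took 10.2 ± 1.14% in WT and 11.4 ± 1.70% in Aβ0/0 (exact permutation p = 0.5). All coding transcripts together held 40.5%, 43.0% and 44.8% in WT against 32.5%, 25.6% and 34.5% in Aβ0/0. The coding share was therefore 42.8 ± 2.19% in WT and 30.9 ± 4.64% in Aβ0/0 (exact permutation p = 0.1), without overlap between genotypes. Aβ0/0 replicate 2, the lowest, gave 11.8% of its counts to Aire-210, another transcript annotated as retaining an intron. Aire-210 took 0.860% and 0% in Aβ0/0 replicates 1 and 3, and 0.296% to 0.463% in WT. Each p of 0.1 is the smallest possible, and 16 transcripts and 7 splicing features were compared, so no share passed a threshold. On the TPM scale, which accounts for length, the Aire-206 share was 41.6 ± 1.84% in WT and 47.5 ± 2.54% in Aβ0/0.

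The sequences that tell these transcripts apart are shown from 5′ to 3′ along the Aire RNA, on the minus strand of chromosome 10 (GRCm38). The first pair shows the end of exon 6, where the capitals at chr10:78039931-78039942 are the 12 bases that the longer form keeps. In the next pair the capitals at chr10:78035657-78035680 are the end of exon 10, joined to exon 11 or running into the retained intron at chr10:78034708-78035656. In the last the capitals at chr10:78036685-78036708 are the end of exon 9, joined to exon 11 when exon 10 (177 bases) is skipped.
Longer exon 6 (Aire-204): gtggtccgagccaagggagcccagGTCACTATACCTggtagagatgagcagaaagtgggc
Shorter exon 6 (Aire-212): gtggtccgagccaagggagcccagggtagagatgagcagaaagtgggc
Exon 10 joined to exon 11 (Aire-204): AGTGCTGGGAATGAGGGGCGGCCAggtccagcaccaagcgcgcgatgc
Exon 10 running into the intron (Aire-206): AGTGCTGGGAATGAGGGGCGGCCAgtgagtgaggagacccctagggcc
Exon 9 joined to exon 11 (Aire-203): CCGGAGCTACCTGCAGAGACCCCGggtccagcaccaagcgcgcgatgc
Transcripts that skip exon 10 took 3.45%, 3.56% and 3.27% of Aire counts in WT mTEC and 0.80%, 1.22% and 0% in Aβ0/0 mTEC. The means of 3.43 ± 0.147% and 0.674 ± 0.620% (SD, n = 3) did not overlap in range, with the smallest possible exact permutation p of 0.1. Transcripts with the shorter exon 6 took 14.2 ± 1.80% in WT and 13.5 ± 1.40% in Aβ0/0 (exact permutation p = 0.5). In cTEC, Aire had between 9 and 409 estimated counts per library, too few to compare its transcripts.

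**Figure D3:**
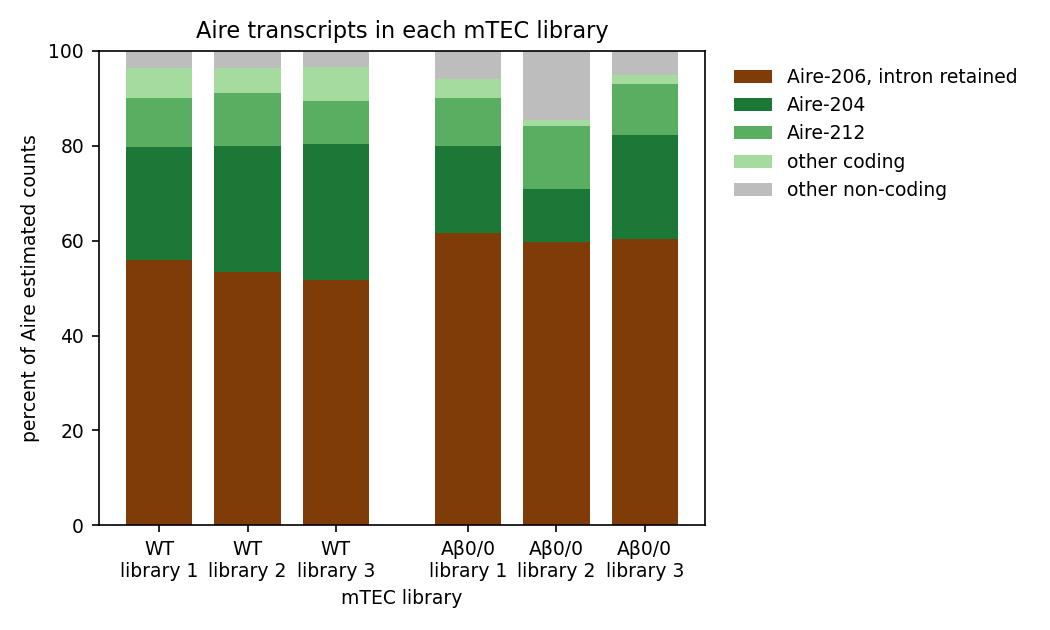
Share of Aire estimated counts given to each transcript in the 6 mTEC libraries, in percent, stacked to the whole. The share of the intron-retaining Aire-206 is 51.8% to 55.8% in WT and 59.7% to 61.5% in Aβ0/0, and that of the coding Aire-204 is 23.8% to 28.6% in WT and 11.1% to 21.9% in Aβ0/0.

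Sirt1, the deacetylase that removes acetyl groups from Aire, was higher in WT mTEC than in any other library. Its level was 64.6, 52.7 and 47.8 TPM in WT mTEC and 18.8, 17.0 and 18.5 TPM in Aβ0/0 mTEC. In cTEC it was 15.1, 17.7 and 19.1 TPM in WT and 16.4, 16.8 and 14.4 TPM in Aβ0/0, so the other 3 groups overlapped in the range of 14.4 to 19.1 TPM. By CPM means, Sirt1 was 3.88 times higher in WT than in Aβ0/0 mTEC, 135 ± 20.3 against 34.7 ± 7.18 (SD, n = 3), with a log2 fold change of 1.96 (SE 0.24, edgeR adjusted p = 0.0352). Among the other 6 sirtuins, 0 passed edgeR in this comparison, 0 had an unadjusted p under 0.05, 0 passed with DESeq2 or limma, and the median log2 fold change was -0.14 against 0.00 over all genes.

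Irf8, an interferon regulatory factor known as an activator of Aire and better known as a factor of dendritic cells, macrophages and B cells, had 129, 117 and 97.3 TPM in WT mTEC and 63.0, 37.4 and 39.3 TPM in Aβ0/0 mTEC. In cTEC it had 36.8, 72.0 and 22.7 TPM in WT and 66.3, 68.1 and 60.6 TPM in Aβ0/0, and the genotypes overlapped through WT replicate 2. In mTEC the Irf8 CPM was 233 ± 26.1 in WT and 98.0 ± 9.38 in Aβ0/0 (SD, n = 3), a log2 fold change of 1.26 (SE 0.18, edgeR adjusted p = 0.0352). In cTEC the log2 fold change was -0.60 (SE 0.32) and did not pass.

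Sirt1 (ENSMUSG00000020063) lies at chr10:63319005-63381704 on the minus strand and Irf8 (ENSMUSG00000041515) at chr8:120736358-120756694 on the plus strand (GRCm38). Their windows before the RefSeq start are printed because both genes were higher in WT mTEC, with capitals as above. The Sirt1 window is chr10:63339036-63339285 on the minus strand, where the RefSeq start lies 42669 bases inside the first start in GENCODE, and the Irf8 window chr8:120736108-120736357 on the plus strand.
Sirt1: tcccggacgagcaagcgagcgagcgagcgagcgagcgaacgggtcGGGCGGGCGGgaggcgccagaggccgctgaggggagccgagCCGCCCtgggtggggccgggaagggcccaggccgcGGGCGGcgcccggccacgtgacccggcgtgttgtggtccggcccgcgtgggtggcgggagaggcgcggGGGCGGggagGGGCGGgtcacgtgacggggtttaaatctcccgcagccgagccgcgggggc
Irf8: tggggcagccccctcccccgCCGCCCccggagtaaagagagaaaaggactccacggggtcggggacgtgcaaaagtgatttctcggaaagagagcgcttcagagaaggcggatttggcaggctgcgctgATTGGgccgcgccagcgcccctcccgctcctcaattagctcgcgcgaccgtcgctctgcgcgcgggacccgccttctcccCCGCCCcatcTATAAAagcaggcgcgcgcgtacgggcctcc
The Sirt1 window is 79.2% G and C with 39 CpG dinucleotides and 6 matches to GGGCGG, and has neither TATAAA nor CCAAT. The Irf8 window has 29 CpG, a TATAAA 31 to 26 bases before the start, a CCAAT box on the other strand and 2 matches to GGGCGG. In the 8 members with a promoter entry (all but Prkdc), the Irf motif was found in 0, as were the Ets-Irf motif and the T-box motif, which 2.98%, 2.30% and 2.68% of all promoters held. The TATA box was found in 3 of the 8, the CCAAT box in 3 and the GC box in 6.

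Markers of blood cells were detected in mTEC although the gate was CD45-. Of 12 dendritic cell and macrophage markers, edgeR called 3 higher in WT mTEC, where it called 5.32% of all genes higher. Separate ranges with WT above were seen for 8, against 18% of all genes. Only 6 of the 12 passed the filter on low counts between subsets of Aβ0/0 mice. The others needed the WT libraries to enter here, so these counts are no test of a direction. Of the 3 called, Fcer1g was measured in both genotypes (means of 25.2 and 1.38 CPM), while Adgre1 and Itgax passed the filter on low counts only through WT. The 12 markers summed to 750, 690 and 693 TPM in WT mTEC and 762, 134 and 130 TPM in Aβ0/0 mTEC, where Lyz2 alone gave 740 TPM of replicate 1, and Itgax and Adgre1 were at 0 in all 3 Aβ0/0 mTEC libraries. With the replicate number as a block, or with genes averaging under 10 counts left out, edgeR called 0 of these 12. Granulocyte markers summed to 1963, 1383 and 1403 TPM in WT and 350, 421 and 187 TPM in Aβ0/0, with 3 of 6 called higher in WT by edgeR, and 0 under either of those settings. Of these 3, S100a8 was measured in both genotypes (means of 317 and 54.0 CPM), while Ngp and Retnlg were at 0 in all Aβ0/0 mTEC libraries and passed the filter only through WT. B and plasma cell markers summed to 30.03 to 47.6 TPM in WT and 7.28 to 30.2 TPM in Aβ0/0, with 0 of 7 called by edgeR, 3 at an unadjusted p under 0.05, 2 with DESeq2 and 3 with limma. At most 4 of these 7 passed the filter between subsets of Aβ0/0 mice, so the others needed WT here too. The part of blood cells in the Irf8 difference was not tested. Without Aβ0/0 replicate 1, the Irf8 log2 fold change was 1.31 (edgeR adjusted p = 0.0298).

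**Figure D4:**
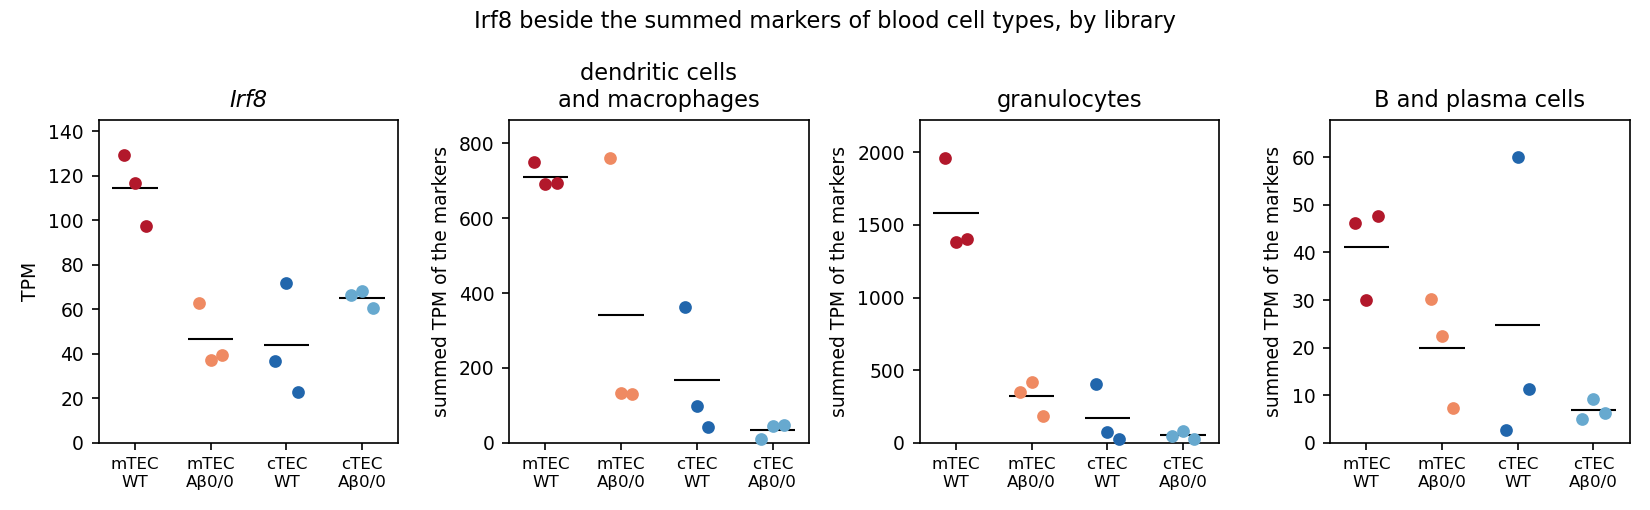
Irf8 in TPM beside the summed TPM of 12 dendritic cell and macrophage, 6 granulocyte and 8 B and plasma cell markers, by library (points) with the group mean (line). WT mTEC are highest for Irf8 (97.3 to 129 TPM) and for the granulocyte sum, whereas Aβ0/0 cTEC hold 60.6 to 68.1 TPM of Irf8 with low sums of these markers, and Aβ0/0 mTEC replicate 1 has a high dendritic cell and macrophage sum through Lyz2.

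In Aβ0/0 cTEC, Irf8 was at 60.6 to 68.1 TPM while the dendritic cell and macrophage markers summed to 9.24 to 46.6 TPM, against 41.3 to 363 TPM in WT cTEC. The sum of 10 thymocyte markers was 609 to 770 TPM in Aβ0/0 cTEC and 248 to 529 TPM in WT cTEC, with 0 of 10 called by edgeR, 4 at an unadjusted p under 0.05, 1 called by DESeq2 and 0 by limma. In mTEC that sum was 68.4 to 148 TPM in WT and 25.6 to 129 TPM in Aβ0/0. Its part in the Irf8 levels was not tested. The Irf8 gene also lies inside a longer annotated gene of the same strand, Gm20388 (chr8:119910841-124345722), which had 845, 1514 and 1995 estimated counts in WT mTEC and 1512, 1644 and 185 in Aβ0/0 mTEC. Irf8 had 5530, 8723 and 6702 and 2683, 2873 and 2317 in the same libraries. How reads were split between them was not tested.

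Irf4 and Prdm1, factors of activated lymphocytes and plasma cells that are also reported in thymic epithelium, were low and uneven. Irf4 had 10.4, 6.74 and 5.78 TPM in WT mTEC and 8.28, 0.604 and 4.14 TPM in Aβ0/0 mTEC, with overlap, and its log2 fold change of 1.01 (SE 0.72, edgeR adjusted p = 0.622) did not pass. Prdm1 had 1.21, 0.223 and 1.31 TPM in WT mTEC and 0.452, 1.39 and 0 TPM in Aβ0/0 mTEC, which also overlapped. It passed the filter on low counts there only through WT and is given by its levels. In cTEC, Irf4 was at most 0.00815 TPM in the Aβ0/0 libraries and reached 1.45 TPM in WT replicate 2, where B and plasma cell markers were also highest, at 60.04 TPM against 2.77 and 11.4 TPM in the other WT cTEC libraries. Prdm1 reached 1.90 TPM in Aβ0/0 cTEC replicate 2 and was at most 0.146 TPM in the other 5 cTEC libraries. The part of other cells in these values was not tested.

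The partners did not separate by genotype. Chd4, the remodelling ATPase of the NuRD complex and a partner of Fezf2, had 30.5, 26.8 and 30.7 TPM in WT mTEC and 24.9, 57.7 and 36.0 TPM in Aβ0/0 mTEC. Hipk2, a kinase that phosphorylates Aire, had 23.6, 15.6 and 17.7 TPM in WT mTEC and 29.1, 3.08 and 46.4 TPM in Aβ0/0 mTEC. Prkdc, the catalytic subunit of the DNA-dependent protein kinase and a binding partner of Aire, had 3.83, 1.73 and 2.09 TPM in WT mTEC and 3.53, 1.57 and 1.28 TPM in Aβ0/0 mTEC. The genotypes overlapped for each, and the spread of Hipk2 among the Aβ0/0 libraries was wider than any difference between groups. Their log2 fold changes were -0.13 (SE 0.19), -0.55 (SE 0.57) and 0.13 (SE 0.38). In cTEC, Chd4 ranged from 25.6 to 60.97 TPM, Hipk2 from 5.16 to 29.6 TPM and Prkdc from 2.21 to 7.42 TPM over both genotypes, again with overlap.

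**Figure D5:**
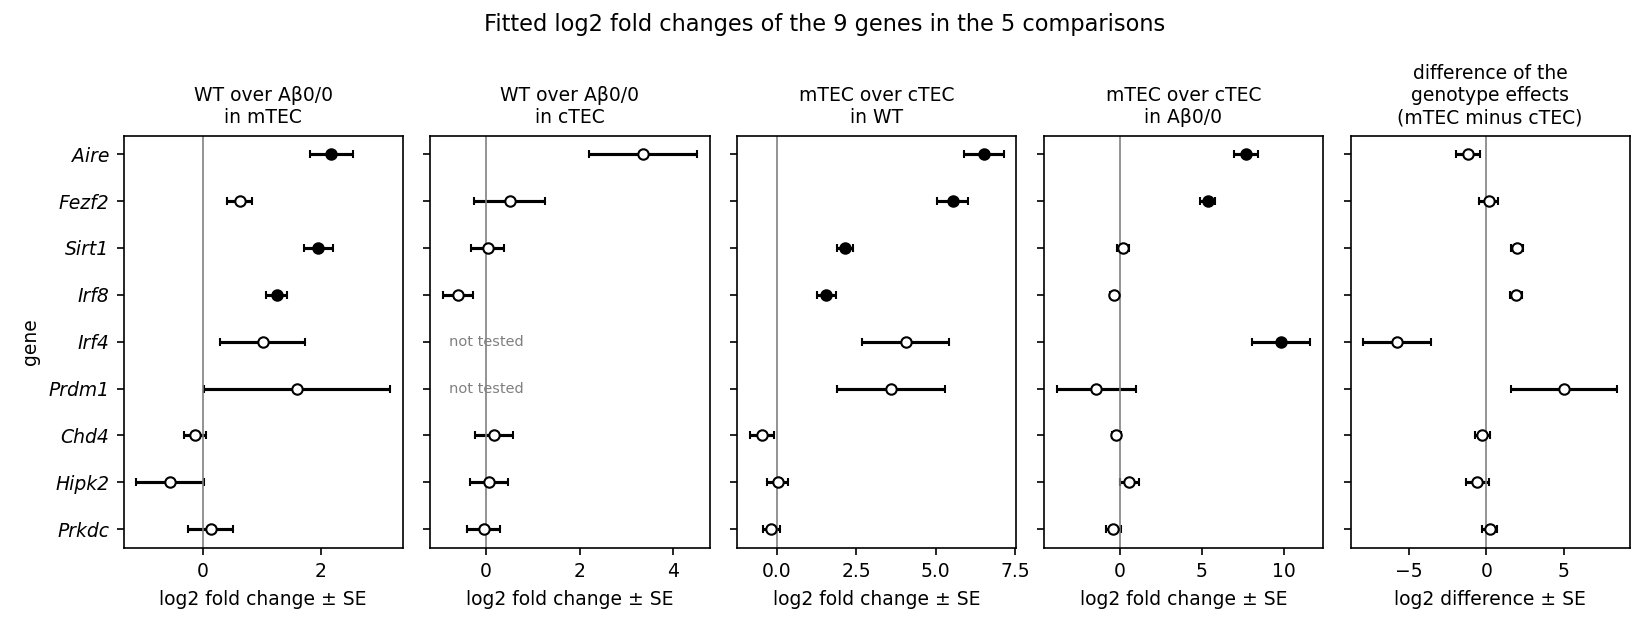
Fitted log2 fold change with its SE for the 9 genes in the 5 comparisons, 1 panel each. Filled points passed the edgeR test at an adjusted p under 0.05 and open points did not. In mTEC, Aire (2.17), Sirt1 (1.96) and Irf8 (1.26) are filled for genotype, and in cTEC no point is filled. Irf4 and, in WT, Prdm1 are drawn between subsets although they passed the filter on low counts only through mTEC. Both entered the interaction that way too, and Prdm1 entered the genotype panel of mTEC only through WT. These points are not read as results.

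Genes that act around Aire were described by list in the same mTEC comparison, in which 5.66% of all genes were called. The edgeR calls given below were lost with the replicate number as a block and with genes averaging under 10 counts left out. Of 12 genes of the RANK, CD40 and NF-kB route that induces Aire, 0 were called by edgeR, 1 had an unadjusted p under 0.05, and 1 was called higher in WT by DESeq2 and 1 by limma, with a median log2 fold change of 0.28. Cd40, the receptor itself, had separate ranges, with 270, 218 and 201 TPM in WT and 55.0, 120 and 73.0 TPM in Aβ0/0 (log2 fold change 1.18, SE 0.40, edgeR adjusted p = 0.202). Cd40 was named after its values were seen. Of 12 other factors acting on the Aire gene or protein, 0 were called by edgeR, 2 had an unadjusted p under 0.05, DESeq2 called 1 lower and limma 0, with a median of -0.13.

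Of 26 binding partners of Aire, 1 was called by edgeR and 5 had an unadjusted p under 0.05, against 15.3% of all genes. The called gene was Ccnt2, a cyclin of the elongation kinase P-TEFb. Ccnt2 was lower in WT, with 33.6, 24.8 and 30.05 TPM against 51.3, 44.0 and 82.9 TPM in Aβ0/0 (log2 fold change -0.91, SE 0.20, edgeR adjusted p = 0.0492). The median over the partners was -0.26. Of 13 NuRD and Chd genes, 0 were called by edgeR, 3 had an unadjusted p under 0.05, and DESeq2 called 1 lower and limma 0. Of 7 other Irf genes, 0 were called by edgeR, 3 had an unadjusted p under 0.05, DESeq2 called 1 higher and 1 lower and limma 1 higher. Of 3 other Hipk genes, 0 were called by edgeR, DESeq2 or limma, and 0 had an unadjusted p under 0.05.

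Targets of Aire and Fezf2 differed among themselves. The self-antigens listed here were also chosen for RT-PCR on these mice, so their list is not independent evidence of a direction. Of these 6 genes, edgeR called 1, Calb1, which passed the filter on low counts only through WT and is given by its levels. Calb1, a calcium-binding protein of brain and kidney, had 7.32, 6.34 and 4.49 TPM in WT mTEC and 0.438, 0.726 and 0.583 TPM in Aβ0/0 mTEC. The Calb1 means were 17.2 and 0.318 CPM but 6.05 and 0.582 TPM, so the difference was much smaller on the TPM scale. Mucl2 was taken here for the gene that the study lists as Spt1 and describes as serine palmitoyltransferase. Mucl2 had 143, 81.9 and 65.2 TPM against 33.5, 17.0 and 8.15 TPM, separate ranges that did not pass (log2 fold change 2.199, edgeR adjusted p = 0.0695). Ins2, the gene for an insulin, had 50.0, 92.1 and 67.3 TPM in WT and 2.71, 42.3 and 0 TPM in Aβ0/0, with a wide spread. It too passed the filter only through WT and is given by its levels. The log2 fold changes of Csrnp3, Nol4 and Fabp9 were 1.80, 0.58 and 0.02, and none passed.

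Of 8 mature mTEC markers, 2 were called higher by edgeR, against 5.32% of all genes, 6 had an unadjusted p under 0.05 and the median log2 fold change was 1.22. The 2 were Cd86 and Icosl. Cd86, a costimulatory ligand, passed the filter only through WT and is given by its levels, 15.8, 9.85 and 8.53 TPM in WT and 0.0630, 0.246 and 0.828 TPM in Aβ0/0. Icosl, the ligand of ICOS, had 123, 91.1 and 60.5 TPM against 38.7, 32.8 and 37.1 TPM (log2 fold change 1.20, SE 0.25, edgeR adjusted p = 0.0413). The summed mature markers were 775, 547 and 488 TPM in WT and 495, 272 and 259 TPM in Aβ0/0, overlapping at 1 library. Of 7 immature mTEC markers, 0 were called by edgeR, 5 had an unadjusted p under 0.05, DESeq2 called 2 lower in WT and limma 0, with a median of -0.53. Their sum, carried by the chemokine gene Ccl21a, was 17202 to 22844 TPM in WT and 23867 to 34021 TPM in Aβ0/0. The part of maturation stage in the Aire, Sirt1 and Irf8 differences was not tested.

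In cTEC, 0 of the 7 members tested passed between genotypes with edgeR, where 0.0194% of all 15432 genes passed. An unadjusted p under 0.05 was reached by 1 member, against 2.16% of genes, DESeq2 and limma on the cTEC libraries called 0, and DESeq2 on all 12 libraries, chosen after seeing the data, called Aire. It also called Irf4, which had entered that fit only through mTEC and had 3, 149 and 1 estimated counts in WT cTEC and 0, 0 and 1 in Aβ0/0 cTEC, so that call is not counted here. Aire had separate ranges here too, with CPM of 3.86, 12.8 and 5.09 in WT and 1.40, 0.476 and 0.252 in Aβ0/0, which is a log2 fold change of 3.36 (SE 1.15) at a level of 9 to 409 estimated counts. Over 14 alternatives this value ranged from 1.63 (limma on log2(TPM + 1)) to 4.31 (without Aβ0/0 replicate 1), and it was 2.65 without WT replicate 2. Groups without overlap made up 7.69% of the genes tested in cTEC, and 4.11% with WT above. Fezf2 overlapped, with 2.77, 6.53 and 6.52 TPM in WT and 2.27, 4.77 and 5.11 TPM in Aβ0/0 (log2 fold change 0.51, SE 0.76), and Sirt1 had a log2 fold change of 0.04 (SE 0.35).

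Between subsets of WT mice, 4 of the 7 members other than Irf4 and Prdm1 were called, all higher in mTEC, where 26.8% of 18667 genes were called and 18% were called higher in mTEC. The log2 fold change was 6.51 for Aire (SE 0.62, edgeR adjusted p = 0.000596), 5.53 for Fezf2 (SE 0.49, edgeR adjusted p = 0.000461), 2.15 for Sirt1 (SE 0.25, edgeR adjusted p = 0.00119) and 1.56 for Irf8 (SE 0.30, edgeR adjusted p = 0.0072). These 4 passed in each of 14 alternatives. Each had separate ranges with mTEC above, a state of 29.5% of genes, or 47% in either direction. Irf4 had 765, 817 and 692 estimated counts in WT mTEC and 3, 149 and 1 in WT cTEC, and Prdm1 had 65.5, 29.4 and 175 against 0, 0 and 19.

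Between subsets of Aβ0/0 mice, Aire and Fezf2 were called, both higher in mTEC, where 5.6% of 15687 genes were called and 3.45% called higher. Aire had a log2 fold change of 7.69 (SE 0.71, edgeR adjusted p = 0.00283) and Fezf2 of 5.36 (SE 0.47, edgeR adjusted p = 0.00219), and both passed in each of 14 alternatives. Irf4 had 24.9, 2.79 and 11.01 CPM in mTEC, with a wide spread, against 0, 0 and 1 estimated counts in cTEC. Sirt1 did not pass, with a log2 fold change of 0.18 (SE 0.38) between subsets of Aβ0/0 mice. Irf8 had 87.7 to 106 CPM in Aβ0/0 mTEC and 109 to 151 CPM in Aβ0/0 cTEC, with a log2 fold change of -0.34 (SE 0.26, edgeR adjusted p = 0.575). On the CPM scale Aire, Fezf2 and Irf8 had separate ranges, a state of 28.1% of genes, but Irf8 overlapped on the TPM scale, where mTEC replicate 1 had 63.0 TPM and cTEC replicate 3 had 60.6 TPM, and on the rlog scale.

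The lists around Aire were also compared between subsets. In WT, where 26.8% of all genes were called and 18% called higher in mTEC, of the 12 genes of the inducing route, 5 were called higher in mTEC and 2 lower by edgeR, among them Tnfrsf11a, the gene for RANK, at a log2 fold change of 4.61, Cd40 at 3.88, Nfkb2 at 1.99 and Nfkbia at 1.96, while Nfkb1 was at -1.67. In Aβ0/0, where 5.6% of all genes were called, 3 of these 12 were called higher in mTEC (Tnfrsf11a at 4.78, Nfkb2 at 1.47 and Nfkbia at 1.18) and 1 lower (Nfkb1 at -1.27). Of 12 other factors in WT, Tbx21, the gene for the T-box factor T-bet, was called higher in mTEC at 3.81 and Ep300, an acetyltransferase gene, lower at -1.04. Of 26 binding partners in WT, 2 were called, a smaller share than over all genes, both lower in mTEC, Xrcc5 at -1.42 and Xrcc6 at -1.15, which encode the Ku subunits that recruit the product of Prkdc to DNA ends.

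Whether the genotype effect differed between subsets was tested as an interaction over all 12 libraries. With edgeR, 0 of the 9 members passed, against 0.0103% of 19461 genes. Below an unadjusted p of 0.05 lay 6.9% of genes and 3 members, all of them among the 4 regulators. Irf4 and Prdm1 had entered this fit only through mTEC, so a value of theirs is not counted as a result. DESeq2 and limma, both fitted without the pool as a block, each called 2, Sirt1 and Irf8, while edgeR with the pool as a block called 0. The difference of the log2 fold changes (mTEC minus cTEC) was 1.96 for Sirt1 (SE 0.39, edgeR adjusted p = 0.266), with 2.04 and an adjusted p of 0.000202 by DESeq2 and 1.43 and 0.0337 by limma. For Irf8 it was 1.89 (SE 0.38, edgeR adjusted p = 0.266), with 1.97 and 0.000449 by DESeq2 and 2.02 and 0.0400 by limma. For Aire the difference was -1.19 (SE 0.79, edgeR adjusted p = 0.875), so no difference between the mTEC and cTEC effects on Aire was detected.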

How the data were processed

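RNA was measured in 12 libraries of sorted cTEC and mTEC. The authors made polyA libraries with SMART-Seq v4, a kit that keeps no strand. Per the labels, reads were demultiplexed with bcl2fastq 2.20.0, trimmed with Trim Galore and quantified with kallisto 0.43, and the genome build was mm10. The deposited estimated counts and TPM were made by the authors with kallisto for each transcript. The deposited log2 values (rlog) were made by the authors with DESeq2 from all 12 libraries, cover 34677 genes and were used for description.

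Of 109282 transcripts per library, 107987 were matched to GENCODE M21 (GRCm38) and 1295, with 0.45% to 0.512% of the counts, were left out. Estimated counts were summed per gene and rounded. For each comparison edgeR 4.0.16 (R 4.3.3) fitted all genes by quasi-likelihood (TMM, filterByExpr, robust), with Benjamini-Hochberg adjusted p under 0.05. The script was tested on simulated counts. DESeq2 1.42.0, limma 3.58.1 on log2(TPM + 1), other filters (none, or a mean of at least 10 counts), other size factors, a replicate block, a fit on all 12 libraries and each library left out were alternatives. CPM use TMM over 12 libraries. No fold against a group at or under 3 counts is read as a measure of size. Such folds of Irf4 and Prdm1 stand in the plot of fitted log2 fold changes and among the values that changed sign. Exact permutation tests are 2-sided. Python 3.11.15 with numpy 2.4.6, pandas 2.3.3, scipy 1.17.1 and matplotlib 3.10.9 did the rest. Intervals and errors cover these pools only.

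The 9 members, the lists and the tests were chosen with earlier results of these data known. Named genes were the members, up to 4 called genes with the largest changes per list, the self-antigens of the RT-PCR, H2-Ab1, and the 5 genes most like Aire and Fezf2. Outside this rule, Cd40 was named between genotypes in mTEC and Nfkb1 between subsets of WT, as were Dnmt3l, Gm20388, Lyz2 and Ccl21a. The main fits took all libraries as separate samples. Between subsets and in the interaction, the pool was a block only in 1 edgeR alternative. cTEC and mTEC libraries of 1 genotype that carry the same number were taken to come from 1 sorting of 1 pool, since the study gives yields of both subsets per sorting. The correlations of their deviations from the group means were 0.279, 0.0168 and 0.126 in WT and 0.285, 0.136 and 0.0403 in Aβ0/0. The same yields stand side by side for WT and Aβ0/0 under each number, so the number may also mark a sorting shared by both genotypes, and genotype comparisons were fitted with and without it as a block. Promoter windows were the 250 bases before the RefSeq start (GRCm38.p6).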

Additional observations from a re-analysis of the deposited data

How the results depend on the processing

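The limits are 3 pools a group, a genotype that comes with its colony, and edgeR adjusted p close to 0.05 in mTEC. Where a count below moved, the cause was not tested beyond the smaller number of libraries of a fit that leaves one out. In mTEC between genotypes, the 3 called members became 1 without a filter, 0 with a mean of at least 10 counts and 1 in the edgeR fit on all 12 libraries, and the 1054 called genes (991 higher in WT) became 27, 11 and 20 (10 higher in WT). DESeq2 called 1782 genes (1355 higher in WT), and DESeq2 on all 12 libraries, chosen after seeing the data, 641. In cTEC, the 0 called members became 2 with DESeq2 on all 12 libraries (Irf4, not tested in cTEC alone, is 1 of them), and the 3 called genes became 7 without a filter, 61 with DESeq2, 12 with limma, 16 with edgeR on all 12 libraries and 296 with DESeq2 on all 12. Between subsets, the 4997 genes of WT became 2760 with edgeR on all 12, and the 878 of Aβ0/0 became 2042 with DESeq2, 1523 with limma, 1819 with edgeR on all 12 and 3689 with DESeq2 on all 12. For the interaction, DESeq2 and limma each called 2 members where edgeR called 0, and 268 and 816 genes where edgeR called 2.

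With the replicate number as a block, the genotype comparison in mTEC called 0 members and 0 genes and that in cTEC 0 genes. The number may mark a sorting shared by WT and Aβ0/0, although the libraries did not all deviate together (correlations of deviations 0.317, 0.138 and 0.0709 in mTEC and 0.301, -0.104 and 0.0200 in cTEC). With the pool as a block, the interaction called 0 members and 0 genes, and no call of a member between subsets changed. Irf4, which passed the filter on low counts between subsets only through mTEC, is left out of that statement.

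Leaving out 1 library in turn gave 0 to 3 members and 0 to 2377 genes in mTEC between genotypes, and 0 members and 1 to 3 genes in cTEC. Between subsets of WT it gave 4 members in each fit and 3395 to 7572 genes. Between subsets of Aβ0/0 it gave 2 members in each fit and 338 to 456 genes, and for the interaction 0 members and 1 to 18 genes. Irf4 and, in WT, Prdm1 are left out of the members between subsets, since they passed the filter on low counts only through mTEC. The share differences in mTEC (WT minus Aβ0/0, percentage points) ranged from -7.94 to -5.92 for Aire-206, 6.16 to 11.5 for Aire-204, -1.77 to -0.193 for Aire-212, 9.30 to 13.7 for coding transcripts, 2.42 to 3.03 for skipped exon 10 and -0.203 to 1.59 for the shorter exon 6, the last reversed without WT replicate 1 (-0.203) and without Aβ0/0 replicate 3 (-0.0615).

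Other log2 fold changes that changed sign had not passed a test in either setting. With limma these were Hipk2 in mTEC between genotypes (0.13), Chd4 and Hipk2 in cTEC (-0.13 and -0.11), Prdm1 between subsets of Aβ0/0 (0.051) and Aire, Irf4 and Hipk2 in the interaction (0.59, 0.54 and 0.24). Without a filter it was Hipk2 between subsets of WT (-0.014), with the pool block Prdm1 between subsets of Aβ0/0 (0.89), and with DESeq2 on all 12 libraries Sirt1 in cTEC (-0.0047). Leaving out 1 library gave reversed values, here with the whole range, for Prkdc in mTEC (-0.07 and -0.082, range -0.082 to 0.39), for Sirt1 (-0.21 and -0.12, to 0.17), Chd4 (-0.31, to 0.42), Hipk2 (-0.07, -0.18, -0.013 and -0.16, to 0.43) and Prkdc (0.14, from -0.15) in cTEC, for Chd4 (0.00076, from -0.80) and Hipk2 (-0.27 and -0.13, to 0.21) between subsets of WT, for Sirt1 (-0.00025, to 0.34) and Prdm1 (5.58, from -2.06) between subsets of Aβ0/0, and for Fezf2 (-0.14 and -0.10, to 0.61), Prdm1 (-2.03, to 10.9) and Chd4 (0.22, from -0.51) in the interaction. The values of Prdm1 between subsets of Aβ0/0 and in the interaction rest on cTEC libraries with 0 or 1 count once a library is left out, so 5.58 and 10.9 depend on the prior count and are no measure of size.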

Other observations

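Across the 12 libraries, the genes whose log2(CPM + 1) followed Aire most closely among 19460 genes were Insm1 (Pearson r = 0.991), a zinc-finger factor of endocrine cells, Sspo (0.989), Hal (0.988), Ncf1 (0.985) and Hdc (0.983), the gene for the enzyme that makes histamine. Fezf2 ranked 118 by this measure (0.950), Irf4 130 (0.947), Sirt1 2043 (0.768) and Irf8 5437 (0.558). The genes most like Fezf2 were Tmem173 (0.991), Ccl19 (0.986), Ifitm1 (0.985), Matn1 (0.985) and Srgn (0.985), and Aire ranked 172. The 12 points fall into mTEC and cTEC and share the same libraries, so these values are descriptions without a test, and they mainly order genes by their difference between subsets.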
